A study of Homo sapiens with 12 samples.

Results

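The genes described here are 10 that epithelial cells use to call in and hold leukocytes, or to restrain the transcription factor NF-κB. They are 6 chemokine genes (CXCL1, CXCL2, CXCL3, CXCL8, CXCL16 and CCL20), 3 genes for brakes and survival factors of the NF-κB pathway (NFKBIA, TNFAIP3 and BIRC3) and 1 adhesion gene (ICAM1). They were picked by gene symbol, and all 10 were found among the 25528 rows of the expression table. The choice was made with earlier results of these data known. Counts of these genes beside the share of all genes are therefore descriptions and not independent of that choice. RNA was sequenced from HT-29 in 12 libraries. HT-29 is a widely used cell line from a human colorectal adenocarcinoma. The labels describe it as APC mutant, so every group carried that mutation. In one arm, lentivirus carried an open reading frame for GFP (the control) or for CTNNB1, which encodes beta-catenin, and cells were taken 2 days after infection. In the other arm, lentivirus carried a hairpin called shNT1 (the control) or a hairpin targeting APC (shAPC), with harvest 1 day after 2 µM doxycycline was given. There were 3 libraries per group. The submitters name neither the form of beta-catenin expressed nor the promoter, and they give 1 hairpin name per target. They do not say whether the 3 libraries of a group came from separate cultures, so p-values measure the spread between these libraries, which may be technical.

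NF-κB dimers such as RELA with NFKB1 are held in the cytoplasm by inhibitors of the IκB family. Receptors for TNF, interleukin-1 and microbial products activate a kinase complex that marks IκB for destruction, and the freed dimers enter the nucleus and bind kappa-B sites. Among the genes they switch on are chemokines, adhesion molecules and the pathway's own inhibitors, which shut the response down again. In the colon these epithelial chemokines bring neutrophils, lymphocytes and dendritic cells to the mucosa, and CXCL8 and its relatives are also made by many colorectal cancers.

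The promoters are shown for the kappa-B sites through which NF-κB acts. Since the genes were listed as chemokines and NF-κB targets, such matches are a description of that choice and not independent of it. RefSeq promoters (GRCh38.p14, 250 bases before to 50 after the start) matched 9 of the 10 genes. CXCL16 had no entry. The patterns searched for on both strands were the kappa-B consensus and the shorter GGANNTTCC, which can overlap each other. The kappa-B consensus was found in 7 of the 9 promoters, and in 11.3% of 35116 promoters of the same length. GGANNTTCC was also found in 7 of the 9, and in 4.56% of all promoters. Each of the 9 held at least 1 of these patterns. The stretches around the matches nearest the start are given 5′ to 3′ on the gene's strand, with the matched bases in capitals.
CXCL1, chr4:73869294-73869344, plus strand: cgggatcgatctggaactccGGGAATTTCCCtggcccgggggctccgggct
CXCL2, chr4:74099243-74099293, minus strand: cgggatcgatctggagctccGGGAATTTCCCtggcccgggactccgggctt
CXCL3, chr4:74038738-74038788, minus strand: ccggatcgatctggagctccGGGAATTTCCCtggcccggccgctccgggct
CXCL8, chr4:73740458-73740506, plus strand: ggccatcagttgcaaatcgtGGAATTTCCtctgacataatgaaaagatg
CCL20, chr2:227813743-227813792, plus strand: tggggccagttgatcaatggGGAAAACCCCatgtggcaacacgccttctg
NFKBIA, chr14:35404801-35404850, minus strand: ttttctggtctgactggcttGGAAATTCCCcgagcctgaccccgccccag
TNFAIP3, chr6:137867172-137867233, plus strand: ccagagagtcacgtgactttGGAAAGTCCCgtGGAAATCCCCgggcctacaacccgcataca
BIRC3, chr11:102317265-102317378, plus strand: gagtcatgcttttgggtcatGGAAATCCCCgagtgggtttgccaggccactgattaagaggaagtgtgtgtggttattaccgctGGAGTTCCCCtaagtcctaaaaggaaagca
ICAM1, chr19:10270914-10270962, plus strand: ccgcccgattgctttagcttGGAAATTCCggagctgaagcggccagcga

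CXCL1, CXCL2 and CXCL3 carried the same 11 matched bases, starting 79, 78 and 79 bases before the RefSeq start. In each gene these bases held 2 overlapping kappa-B matches on opposite strands. TNFAIP3 and BIRC3 each held 2 kappa-B matches that did not overlap. The promoter of CXCL8 also held the only member matches to a TCF/LEF pattern, CTTTGAT (2.62% of all promoters), and to the AP-1 pattern TGANTCA (7.71% of all promoters). This upstream stretch of CXCL8 is shown with both matches in capitals, the TCF/LEF pattern being read on the opposite strand.
CXCL8, chr4:73740365-73740448, plus strand: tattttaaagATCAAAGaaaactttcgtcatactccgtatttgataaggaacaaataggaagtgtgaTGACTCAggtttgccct
These matches describe letters in the window, and binding was not measured.

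The perturbations were checked first. APC averaged 16.4 ± 0.803 TPM in shNT1 and 5.99 ± 0.559 in shAPC (SD, n = 3 each), and CTNNB1 averaged 146 ± 2.87 TPM in GFP and 160 ± 4.24 in the CTNNB1 group. APC changed by -1.32 on the log2 scale (limma adjusted p = 6.14e-06), whereas the change of 0.13 for CTNNB1 did not pass the test (limma adjusted p = 0.059). For CTNNB1 the authors' deposited limma table gives 0.057 (adjusted p = 0.10). A rise of CTNNB1 RNA in the CTNNB1 group was therefore not established. TPM is an abundance per transcript length whose sum is fixed per library, so it keeps no read depth, and the depth behind each value is unknown. Between 14754 and 16184 genes were above 0 TPM per library. Colon epithelial markers were present, 9 of 12 at a mean of at least 1 TPM, with CDX1, CDX2 and CDH17 below that. Their summed level was 11200 to 11350 TPM in GFP, 12590 to 12700 in CTNNB1, 8974 to 10760 in shNT1 and 8843 to 9790 in shAPC. The sum hid members that moved apart: VIL1, KRT18 and KRT8 were called higher in the CTNNB1 arm (0.47, 0.28 and 0.17 on the log2 scale) and KRT19 and CLDN4 lower (-0.21 and -0.31), while KRT20, KRT19 and CDH1 were called lower in the shAPC arm (-0.61, -0.42 and -0.33). Their part in the results was not tested. Of 12 leukocyte markers, CD68 and CD14 reached a mean of 1 TPM, PTPRC stayed at or below 0.0125 TPM in every group mean, and CD3E, FCGR3B and S100A12 were listed at 0 in every library. None of 11 stromal markers reached a mean of 1 TPM.

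Neutrophil-attracting chemokines rose in both arms. CXCL1, CXCL2, CXCL3 and CXCL8, together with ICAM1, were higher in the CTNNB1 group than in GFP and higher in shAPC than in shNT1. Mean TPM ratios for these 5 genes ran from 1.47 (ICAM1, CTNNB1 arm) to 3.51 (CXCL8, shAPC arm). CXCL2 entered the test in the CTNNB1 arm only through the CTNNB1 group, so its call there is not support for a rise. CXCL16 rose in the CTNNB1 arm. TNFAIP3 was called higher in the shAPC arm, but it entered that test only through the level of shAPC. It was too weak to enter the test in the other arm. NFKBIA, BIRC3 and CCL20 did not pass the test in either arm.

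Each arm was tested with limma across all genes, on log2(TPM + 1), for genes with a mean of at least 1 TPM over its 6 libraries. A gene was called at a Benjamini-Hochberg adjusted p under 0.05. In the CTNNB1 arm 9 of the 10 genes entered the test, and 6 were called higher and 0 lower, where 16.3% of 11624 genes were called higher and 7.16% lower (23.5% in either direction). CXCL2 and CCL20 averaged under 1 TPM in GFP and entered through the level of the CTNNB1 group, so the counts over tested members are not support for a rise. In the shAPC arm all 10 entered, TNFAIP3 through the level of shAPC. There 6 were called higher and 0 lower, where 7.24% of 11834 genes were called higher and 14.9% lower (22.1% in either direction). A log2 fold change of at least 1 was reached by 1 member in the CTNNB1 arm (CXCL1) and 2 in the shAPC arm (CXCL1 and CXCL8), against 0.568% and 0.541% of genes. The 5 genes called higher in both arms were among 9 tested in both, against 4.08% of 11556 genes. The median log2 fold change over tested members was 0.62 in the CTNNB1 arm and 0.77 in the shAPC arm, against 0.057 and -0.045 over all genes tested. CXCL2 is among these 5 genes, and CXCL2, CCL20 and TNFAIP3 enter the medians, so neither is support for a rise.

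**Figure D1:**
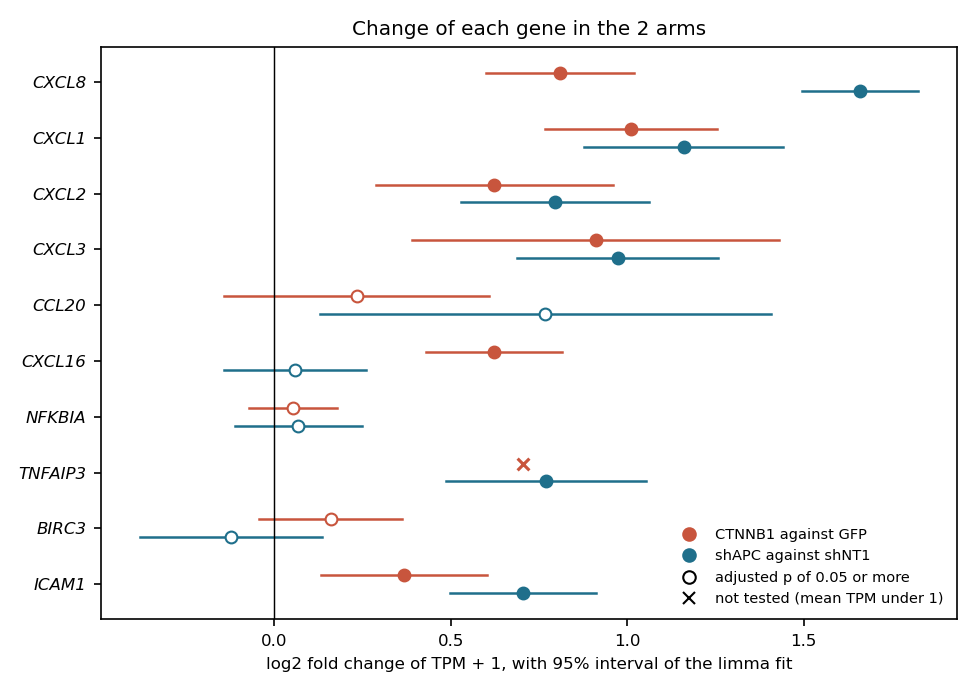
Log2 fold change of TPM + 1 for each gene (x axis) with the 95% interval of the limma fit, in the CTNNB1 arm (red) and the shAPC arm (blue), n = 3 libraries per group. Filled points had an adjusted p under 0.05, and the cross marks TNFAIP3, not tested in the CTNNB1 arm at a difference of 0.71. CXCL8 stands at 0.81 and 1.66, and the points for NFKBIA lie within 0.07 of zero in both arms.

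CXCL8 encodes interleukin-8, which binds the receptors CXCR1 and CXCR2 on neutrophils. It measured 7.92, 8.35 and 8.003 TPM in GFP and 15.3, 17.0 and 12.8 TPM in the CTNNB1 group. It measured 6.23, 6.05 and 6.57 TPM in shNT1 and 20.9, 21.4 and 23.8 TPM in shAPC. All 4 groups were separate from each other, with shAPC highest, then CTNNB1, GFP and shNT1. CXCL8 changed by 0.81 on the log2 scale (SE 0.094, limma adjusted p = 0.0003) in the CTNNB1 arm and 1.66 (SE 0.074, limma adjusted p = 6.26e-07) in the shAPC arm. By the ratio of mean TPM, CXCL8 was 1.86 times its control in the CTNNB1 arm and 3.51 times in the shAPC arm.

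CXCL1, CXCL2 and CXCL3 encode close relatives that also bind CXCR2. CXCL1 measured 3.10, 3.29 and 2.52 TPM in GFP against 7.95, 6.25 and 6.81 in the CTNNB1 group, and 2.01, 2.86 and 3.21 in shNT1 against 7.29, 7.70 and 6.57 in shAPC. Both controls lay below both perturbed groups, and the perturbed groups overlapped each other. The log2 fold changes of CXCL1 were 1.01 (SE 0.11, limma adjusted p = 0.0002) and 1.16 (SE 0.13, limma adjusted p = 0.00019).

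CXCL2 was the weakest of the 3, at 0.437, 0.765 and 0.914 TPM in GFP and 1.40, 2.08 and 1.40 in the CTNNB1 group. In the other arm it went from 0.875, 0.941 and 1.21 TPM in shNT1 to 2.33, 2.68 and 2.44 in shAPC. Neither arm showed overlap, and the changes were 0.62 (SE 0.15, limma adjusted p = 0.016) and 0.80 (SE 0.12, limma adjusted p = 0.0014). The first is not support for a rise, since CXCL2 averaged under 1 TPM in GFP and entered that test only through the CTNNB1 group. CXCL2 was not called in the CTNNB1 arm without GFP replicate 1 (limma adjusted p = 0.059), and it did not enter the test without CTNNB1 replicate 2.

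CXCL3 measured 1.66, 0.907 and 1.23 TPM in GFP and 5.42, 2.47 and 2.36 in the CTNNB1 group, where replicate 1 stood far above the other libraries. It measured 2.51, 2.77 and 1.77 TPM in shNT1 and 5.75, 5.94 and 4.94 in shAPC. The CTNNB1 group overlapped shNT1, the control of the other arm, and every GFP library lay below shNT1. The groups were separate within each arm, with changes of 0.91 (SE 0.23, limma adjusted p = 0.02) and 0.97 (SE 0.13, limma adjusted p = 0.00065). Without CTNNB1 replicate 1 the first of these was 0.61. It was not called without GFP replicate 2 (limma adjusted p = 0.07) or GFP replicate 3 (adjusted p = 0.068), nor with no filter on low values (adjusted p = 0.08).

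The longest open reading frames of CXCL1, CXCL2 and CXCL3, each 324 bases in GENCODE v29 transcripts, were between 90.7% and 94.4% identical. How reads shared between these genes were assigned is not given in the sources used here, so their separate values are uncertain. CXCL8 shared 47.7% with CXCL1.

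These 4 genes lie in one stretch of chromosome 4 (GRCh38, GENCODE v29), with CXCL8 at 73740506 to 73743716, CXCL1 at 73869393 to 73871242, CXCL3 at 74036589 to 74038807 and CXCL2 at 74097035 to 74099293. CXCL8 and CXCL1 are on the plus strand and the other 2 on the minus strand, over 358.8 kb in all. Within this span and 200 kb either side there were 10 protein-coding genes, all in the table. The chemokine genes lying between them were not all expressed: CXCL5 and PF4V1 were listed at 0 in every library, and CXCL6, PF4 and PPBP stayed under 0.5 TPM in every group mean. RASSF6, at the edge of the stretch, averaged 6.84 ± 0.476 TPM in shNT1 and 10.3 ± 0.737 in shAPC (0.53 on the log2 scale, limma adjusted p = 0.0016). In the CTNNB1 arm RASSF6 averaged 6.46 ± 0.216 and 7.77 ± 0.917 TPM (limma adjusted p = 0.09).

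**Figure D2:**
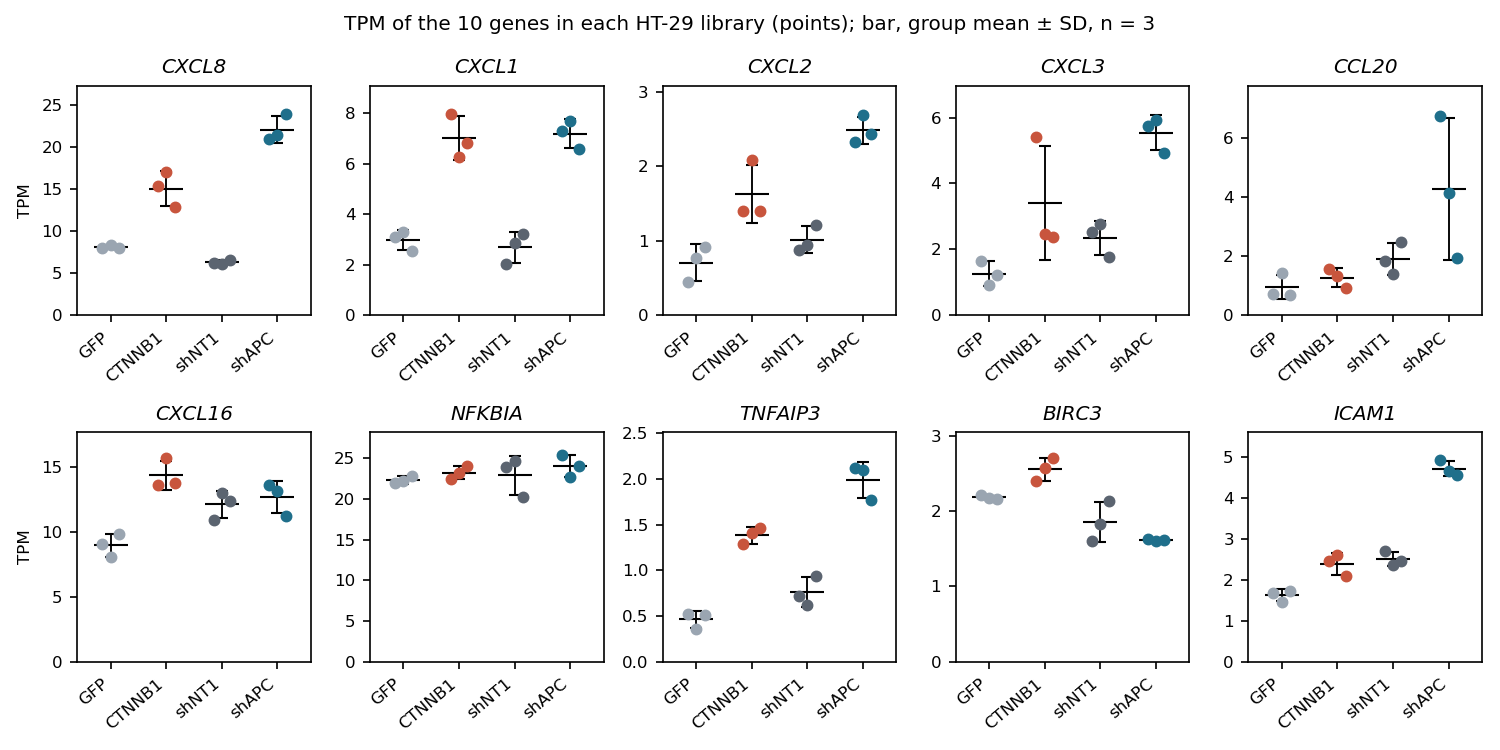
TPM (y axis, from 0) of each of the 10 genes in each library (points), by group, with the group mean and SD (n = 3). For CXCL8, CXCL1, CXCL2, CXCL3, TNFAIP3 and ICAM1 every perturbed library lies above every library of its own control, and NFKBIA lies between 20.2 and 25.4 TPM throughout.

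CCL20 encodes the ligand of CCR6, a receptor on Th17 cells, B cells and dendritic cells. It measured 0.723, 1.42 and 0.686 TPM in GFP and 1.55, 1.33 and 0.925 in the CTNNB1 group, which overlapped. In shNT1 it measured 1.84, 1.40 and 2.47 TPM and in shAPC 6.75, 4.14 and 1.93. The shAPC libraries were spread over a wide range, and replicate 3 lay below shNT1 replicate 3. The changes of 0.23 (SE 0.17, limma adjusted p = 0.34) and 0.77 (SE 0.29, limma adjusted p = 0.082) were not called. Without shAPC replicate 3 the second was 1.14 and was called (limma adjusted p = 0.0071), and without shNT1 replicate 3 it was 0.91 (adjusted p = 0.0499).

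CXCL16 encodes a transmembrane chemokine that binds CXCR6 and is shed by the protease ADAM10. It measured 9.08, 8.07 and 9.83 TPM in GFP and 13.6, 15.7 and 13.8 in the CTNNB1 group. In shNT1 it measured 10.9, 13.0 and 12.4 TPM, and in shAPC 13.6, 13.2 and 11.3. GFP lay below all other libraries, while shNT1 and shAPC overlapped. CXCL16 changed by 0.62 (SE 0.086, limma adjusted p = 0.00088) in the CTNNB1 arm and by 0.059 (SE 0.09, limma adjusted p = 0.68) in the shAPC arm, where the 95% interval ran from -0.14 to 0.26. CXCL16 overlaps MED11 on the opposite strand, and whether counting used strand is not given in the sources used here. ADAM10 averaged between 171 and 203 TPM in the 4 groups and was not called in either arm.

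ICAM1 encodes the adhesion molecule on which leukocytes bearing LFA-1 settle. It measured 1.68, 1.45 and 1.73 TPM in GFP and 2.45, 2.61 and 2.08 in the CTNNB1 group. In shNT1 it measured 2.71, 2.36 and 2.45 TPM and in shAPC 4.91, 4.65 and 4.56. The groups were separate in each arm, although shNT1 and CTNNB1, which belong to different arms, overlapped. The change in the shAPC arm was 0.70 (SE 0.093, limma adjusted p = 0.00066). In the CTNNB1 arm it was 0.37 (SE 0.11, limma adjusted p = 0.032), and it was not called when any library other than CTNNB1 replicate 3 was left out (limma adjusted p up to 0.12) or under quantile normalization (limma adjusted p = 0.12). ICAM1 overlaps 2 antisense genes on the opposite strand in GENCODE v29.

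The 3 NF-κB regulators did not move alike. NFKBIA encodes IκBα, the inhibitor that NF-κB itself switches on. It was the most abundant of the 10 genes in every group, at 22.02, 22.2 and 22.8 TPM in GFP and 22.5, 23.2 and 24.1 in the CTNNB1 group. In shNT1 it measured 23.9, 24.7 and 20.2 TPM and in shAPC 25.4, 22.7 and 24.0. The groups overlapped in both arms. The changes of NFKBIA were 0.055 (95% interval -0.07 to 0.18, limma adjusted p = 0.51) and 0.069 (95% interval -0.11 to 0.25, limma adjusted p = 0.59), and the sign of the first turned under median-ratio scaling (-0.017) and quantile normalization (-0.0072).

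TNFAIP3 encodes A20, an enzyme that edits ubiquitin chains and ends NF-κB signalling. It measured 0.521, 0.354 and 0.514 TPM in GFP and 1.28, 1.41 and 1.46 in the CTNNB1 group. In shNT1 it measured 0.719, 0.62 and 0.937 TPM and in shAPC 2.12, 2.10 and 1.77. All 4 groups were separate, in the order shAPC, CTNNB1, shNT1 and GFP. The change in the shAPC arm was 0.77 (SE 0.13, limma adjusted p = 0.0023). TNFAIP3 averaged 0.759 TPM in shNT1 and entered this test only through shAPC, so the call is not support for a rise. In the CTNNB1 arm the mean was under 1 TPM, and the exact permutation test of the difference of 0.71 gave p = 0.1, two-sided, the smallest that 3 libraries against 3 allow. With no filter on low values this difference passed the limma test over 17849 genes (adjusted p = 0.0024). TNFAIP3 overlaps an antisense gene on the opposite strand.

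BIRC3 encodes cIAP2, a ubiquitin ligase that protects cells from death downstream of the TNF receptor. It measured 2.21, 2.17 and 2.16 TPM in GFP and 2.39, 2.57 and 2.699 in the CTNNB1 group. In shNT1 it measured 1.60, 1.82 and 2.13 TPM and in shAPC 1.62, 1.61 and 1.61. The CTNNB1 libraries lay above GFP, whereas shAPC and shNT1 overlapped. Neither the change of 0.16 (SE 0.09, limma adjusted p = 0.23) nor that of -0.12 (SE 0.12, limma adjusted p = 0.49) was called.

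Counted by separation alone, all 3 libraries of the CTNNB1 group lay above all 3 of GFP for 8 of the 10 genes, where this held for 30.2% of genes tested. The exceptions were CCL20 and NFKBIA. In the shAPC arm it held for 6 of the 10, against 14.5% of genes tested. None of the 10 had the perturbed libraries all below their control in either arm, where this held for 13.0% and 26.4% of genes tested. The counts of members include TNFAIP3 in the CTNNB1 arm, which is not among the genes tested there. CXCL2 in the CTNNB1 arm and TNFAIP3 in the shAPC arm entered the test only through the perturbed group. These counts are therefore not support for a rise.

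**Figure D3:**
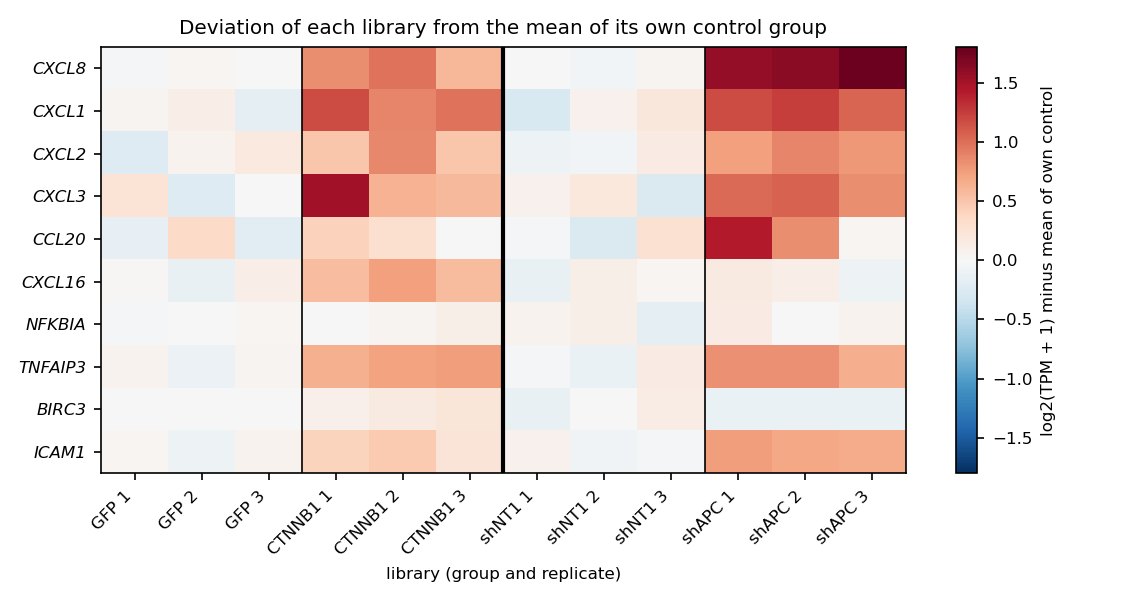
Difference of log2(TPM + 1) in each library (columns) from the mean of its own control group, for each gene (rows), red above and blue below. CXCL8 is above its control mean by most in the shAPC libraries, CXCL3 has its highest value in CTNNB1 replicate 1, and CCL20 is high in shAPC replicates 1 and 2 but not in replicate 3.

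The authors' deposited limma tables give larger log2 fold changes for the weak genes than the log2(TPM + 1) scale used here. For TNFAIP3 the authors' deposited tables give log2 fold changes of 1.497 in the CTNNB1 arm and 1.44 in the shAPC arm (adjusted p = 0.0041 and 0.0044). For CXCL8 the authors' deposited tables give 0.83 and 1.83 (adjusted p = 0.011 and 0.0012). For CXCL2 and CXCL3 in the CTNNB1 arm the authors' deposited table gives 1.14 and 1.23, with adjusted p-values of 0.084 and 0.15 that do not pass 0.05. Of the 10 genes, 5 passed 0.05 in the authors' deposited table for the CTNNB1 arm (CXCL1, CXCL8, CXCL16, TNFAIP3 and ICAM1) and 6 in that for the shAPC arm. Some falls described below for the shAPC arm did not pass 0.05 there. They were those of TNFRSF1A, TLR4, LTBR, IRAK1, CHUK, TNIP2 and IFI6 (adjusted p from 0.059 for TNIP2 to 0.14 for TLR4). Those of NFKBIZ, OTULIN, PLAUR, MMP7, TNFAIP2, IFI44, OAS1 and OAS2 did pass.

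The sizes of the changes in the 2 arms were compared by subtracting the shAPC effect from the CTNNB1 effect, with all 12 libraries in a single limma fit. Vector, collection day and doxycycline differed between the arms and cannot be told apart from the perturbations in this contrast. The rise of CXCL8 was smaller in the CTNNB1 arm than in the shAPC arm (-0.85, SE 0.12, limma adjusted p = 0.00062), and that of CXCL16 was larger (0.56, SE 0.13, limma adjusted p = 0.012). These were the 2 of 10 members called, against 16.1% of 11741 genes (13.3% higher, 2.76% lower), so their share was near the background. The median difference over all genes was 0.11 and fell to 0.0039 under median-ratio scaling, where CXCL8 and CXCL16 were still called. ICAM1 had a difference of -0.34 (limma adjusted p = 0.093), which was called under median-ratio scaling (-0.41, limma adjusted p = 0.038), quantile normalization (-0.45, adjusted p = 0.023) and without the variance trend (-0.34, adjusted p = 0.044). The differences for CXCL1 (-0.15, 95% interval -0.53 to 0.23), CXCL2 (-0.17, interval -0.58 to 0.24) and CXCL3 (-0.063, interval -0.70 to 0.57) were not called. The intervals of all 3 were wide enough to hold a difference of 0.5 in size.

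The rest of the NF-κB pathway was described by gene lists, which were also chosen with earlier results of these data known. The counts of each list stand against 16.3% of all genes called higher and 7.16% lower in the CTNNB1 arm, and 7.24% higher and 14.9% lower in the shAPC arm. Among 25 genes for NF-κB subunits and the kinases and adaptors that activate them, all 25 were tested, and 1 rose and 1 fell in the CTNNB1 arm while 2 rose and 2 fell in the shAPC arm. Both counts were below the 23.5% and 22.1% of all genes called in either direction. The list medians of 0.11 and -0.049 stood beside 0.057 and -0.045 for all genes. RELA, the main activating subunit, averaged between 56.9 and 57.6 TPM in the 4 groups, and NFKB1 between 30.5 and 35.0 TPM. RELB, a subunit of the non-canonical branch, rose in shAPC from 4.45 ± 0.156 to 6.42 ± 0.568 TPM (0.44, limma adjusted p = 0.0062). TRAF5, an adaptor of TNF-family receptors, went from 9.32 ± 0.193 TPM in GFP to 13.7 ± 1.05 in CTNNB1 (0.51, limma adjusted p = 0.00093) and from 13.0 ± 0.328 to 15.6 ± 0.755 in the shAPC arm (0.24, limma adjusted p = 0.028). The falls were those of TBK1 (-0.17, limma adjusted p = 0.0496) in the CTNNB1 arm and of the kinases IRAK1 (-0.23, limma adjusted p = 0.035) and CHUK (-0.19, limma adjusted p = 0.045) in the shAPC arm. Under median-ratio scaling 1 gene of the list rose and 3 fell in the CTNNB1 arm, and 2 rose and 1 fell in the shAPC arm.

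Of 16 other inhibitors and feedback regulators, 14 were tested, with medians of 0.041 and -0.13. None rose. BCL3, a nuclear IκB relative, fell in the CTNNB1 arm (-0.39, limma adjusted p = 0.013). In the shAPC arm NFKBIZ, another nuclear IκB relative, fell from 23.5 ± 1.86 to 14.5 ± 1.98 TPM (-0.67, limma adjusted p = 0.0011). OTULIN, which removes linear ubiquitin chains, and TNIP2, a partner of A20, fell there too (-0.24 each, limma adjusted p = 0.032 and 0.026).

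Of 45 other genes widely described as NF-κB targets, 17 were tested in the CTNNB1 arm, 8 higher and 2 lower, with a median of 0.16. In the shAPC arm 21 were tested, 2 higher and 3 lower, with a median of -0.04. PTGS2, the inducible cyclooxygenase, went from 1.13 ± 0.144 TPM in GFP to 2.41 ± 0.0598 in CTNNB1 (0.68, limma adjusted p = 0.0013) but changed by -0.04 in the shAPC arm, which was not called. PTGS2 averaged 2.68 TPM in shNT1 and 2.58 in shAPC, so GFP was the group that stood apart. PLAU, the urokinase protease, and GADD45B, a stress-response gene, also rose in the CTNNB1 arm (0.86 and 0.69, limma adjusted p = 0.0012 and 0.0014). PLAU averaged 0.59 TPM in GFP and entered the test only through its level in the CTNNB1 group, so its place in the count is not support for a rise. IL32, a cytokine gene, rose in shAPC from 0.464 ± 0.205 to 2.85 ± 1.035 TPM (1.37, limma adjusted p = 0.0013), and it too entered the test only through the group where it was high. LCN2, an antimicrobial siderophore-binding protein, was called higher in both arms (0.31 and 0.18, limma adjusted p = 0.0028 and 0.028), while PLAUR, the urokinase receptor, was called lower in both (-0.53 and -0.79, limma adjusted p = 0.0002 and 0.00013). MMP7, a secreted protease, and TNFAIP2 also fell in the shAPC arm (-0.42 and -0.25, limma adjusted p = 0.00044 and 0.015).

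**Figure D4:**
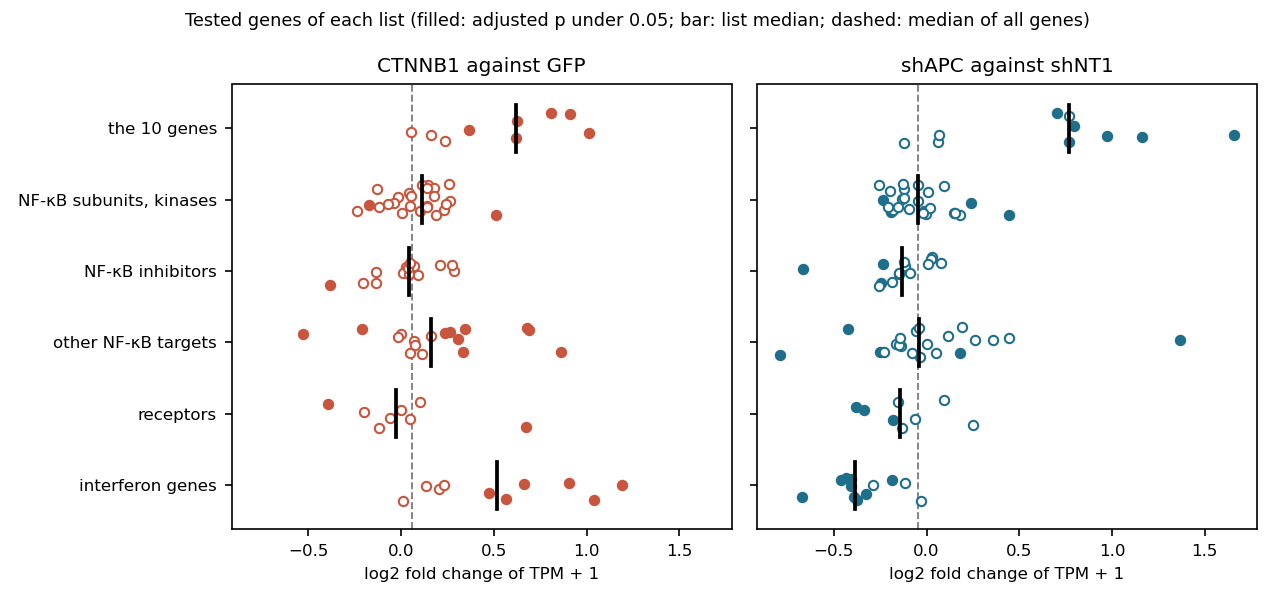
Log2 fold change of TPM + 1 (x axis) of every tested gene of each list (rows) in the CTNNB1 arm (left) and the shAPC arm (right). Filled points had an adjusted p under 0.05, bars are list medians and the dashed line is the median of all genes. The 10 genes have medians of 0.62 and 0.77, the subunits and kinases 0.11 and -0.049, and the interferon genes 0.52 and -0.38.

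The receptors for these ligands were nearly absent from the cells. CXCR1 and CXCR6 were listed at 0 in every library, CXCR2 in all but 1, and CCR6 averaged between 0.108 and 0.458 TPM in the 4 groups. ITGAL and ITGB2, the chains of LFA-1, stayed under 0.07 TPM in every group mean. Of 20 receptors and related genes 8 were tested in each arm, 1 higher and 1 lower in the CTNNB1 arm and 0 higher and 3 lower in the shAPC arm. With 8 genes, 1 called in a direction is near the shares of all genes in the CTNNB1 arm. TNFRSF1A, the main TNF receptor, fell in both arms, from 93.3 ± 4.55 to 70.7 ± 3.61 TPM (-0.40, limma adjusted p = 0.0011) and from 81.2 ± 6.55 to 62.1 ± 4.31 TPM (-0.38, limma adjusted p = 0.0051). TLR3, a sensor of double-stranded RNA, rose in the CTNNB1 arm (0.68, limma adjusted p = 0.0015), and TLR4 and LTBR fell in the shAPC arm (-0.34 and -0.18, limma adjusted p = 0.045 and 0.046). TLR3 averaged 1.11 TPM in GFP, 2.37 in CTNNB1, 2.19 in shNT1 and 2.39 in shAPC, so here too GFP stood apart. Under median-ratio scaling 1 receptor rose and 2 fell in the CTNNB1 arm, and 0 rose and 1 fell in the shAPC arm. The ligands TNF and IL6 were at or near 0, with group means of at most 0.0173 TPM for TNF and 0 in every library for IL6.

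Genes induced by interferon, a family of antiviral effectors and sensors, were counted beside these. Of 14, 10 were tested in the CTNNB1 arm, where 6 rose and 0 fell, and 12 in the shAPC arm, where 0 rose and 9 fell, against 16.3% of all genes called higher in the first arm and 14.9% lower in the second. IFIT1, an antiviral effector, went from 2.05 ± 0.0318 to 5.28 ± 0.595 TPM in the CTNNB1 arm (1.04, limma adjusted p = 7.51e-05). IFIT1 averaged 5.89 TPM in shNT1 and 5.39 in shAPC, so GFP was the group that stood apart. IFIT2, IFIT3 and IFI6 also rose there (1.19, 0.91 and 0.66, limma adjusted p = 0.00029, 0.0003 and 0.0012). These genes too had their lowest mean in GFP, and IFIT2 averaged 11.1 TPM in CTNNB1 and 11.8 in shNT1. IFI44 went from 18.4 ± 0.406 to 13.1 ± 0.822 TPM in the shAPC arm (-0.46, limma adjusted p = 0.0012). OAS2, OAS1 and IFI6 also fell there (-0.67, -0.44 and -0.41, limma adjusted p = 0.0074, 0.0065 and 0.009). OAS2 averaged 1.94 TPM in shNT1 and 0.854 in shAPC. It entered the test only through shNT1, so its place in the count is not support for a fall. Under median-ratio scaling 6 rose and 0 fell in the CTNNB1 arm, and 0 rose and 7 fell in the shAPC arm. In the test of the difference between arms, 9 of the 11 interferon genes tested were called higher, against 13.3% of all genes. The summed level of the 12 leukocyte markers also moved with the groups, at 29.1 to 30.5 TPM in GFP, 15.5 to 17.2 in CTNNB1, 16.04 to 18.1 in shNT1 and 9.29 to 11.5 in shAPC. Most of it was CD68, a lysosomal protein gene, which fell in both arms (-0.98 and -0.81, limma adjusted p = 2.36e-05 and 0.00067), and the part of these shifts in the chemokine results was not tested. In bulk RNA, more cells that express a gene and more RNA per cell cannot be told apart.

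Across the 12 libraries the members varied together to different degrees. The libraries fall into 4 groups, so these correlations of log2(TPM + 1) describe mainly group levels and carry no p. The highest Pearson r between members was 0.936, for TNFAIP3 and CXCL2, and CXCL8 and CXCL1 had 0.917. The lowest was -0.677, for BIRC3 and ICAM1. Among 9425 other genes with a mean of at least 5 TPM, the nearest to CXCL8 were TSC22D1 (r = 0.977) and PLPP1 (r = 0.976), and the nearest to CXCL1 were TRIM24 (r = 0.973) and PELI1 (r = 0.972). For TNFAIP3 they were KREMEN1 (r = 0.987) and RETNLB (r = 0.983), and for ICAM1 PNRC1 (r = 0.987) and RHOQ (r = 0.986). For CXCL2 they were SEMA3F (r = 0.967) and NCKAP5L (r = 0.965), and for CXCL3 DHX40 (r = 0.968) and ZNF614 (r = 0.964). The nearest to CXCL16 were BRD3 (r = 0.941) and ETV6 (r = 0.931), and to BIRC3 CENPO (r = 0.968) and MAPKAP1 (r = 0.946). CCL20 was nearest to RPL6 (r = 0.936) and STK36 (r = 0.917), and NFKBIA to PFDN1 (r = 0.919) and FAM104B (r = 0.885). RETNLB, a goblet cell product, averaged 2.28 TPM in GFP, 6.17 in CTNNB1, 3.24 in shNT1 and 10.1 in shAPC.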

How the data were processed

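RNA-seq of 12 HT-29 libraries was used, in 4 groups of 3 taken from the sample titles. The authors deposited TPM, with every column summing to the same total. Build hg38, STAR 2.7.3a and limma are named in the submitters' processing notes. The annotation, quantifier and strandedness are not given in the sources used here. The authors also deposited limma tables with log2 fold changes, p-values and adjusted p-values. The t and log-odds score columns of these deposited tables were not used.

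Each arm was fitted on log2(TPM + 1) with limma (version 3.58.1; R 4.3.3), using moderated variances and a mean-variance trend, for genes with a mean of at least 1 TPM. The call threshold was a Benjamini-Hochberg adjusted p under 0.05 over all genes tested. Since 1 is added, changes of weak genes are understated. The fits were also run on simulated counts of assumed depth and spread, which cannot give the error rates in these libraries. TPM gives no depth, so no counting interval was derived. Locations came from GENCODE v29 (GRCh38) and promoters from RefSeq (GRCh38.p14). These sources place some starts differently, so the promoter stretches shown for CXCL2, CXCL3, CCL20 and ICAM1 lie inside the GENCODE spans of these genes.

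The text names all 10 members, for each other list up to 4 called genes per arm with the largest change, the receptors of the members, and per member the 2 genes with the most similar profile. LCN2, RELA, NFKB1, ADAM10, TNF, IL6, CD14, RASSF6 and the other genes of the chromosome 4 stretch were added after values had been seen, and of the interferon and marker lists only a few genes are named. The members and lists were chosen with earlier results of these data known.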

Additional observations from a re-analysis of the deposited data

Results flagged for a closer look

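These genes passed the limma test of the difference between the arms (CTNNB1 effect minus shAPC effect, log2 scale) at an adjusted p under 0.05. Genes are listed where the report names them, so the lists of NF-κB and interferon genes are partial: XIAP, IER3, IRF1, ISG15 and OAS3 are among the others that passed. Groups of 3 libraries are too small for a check of single outlying samples.

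Among the 10 genes, CXCL8 differed by -0.85, rising by 0.81 in the CTNNB1 arm and 1.66 in the shAPC arm, and CXCL16 by 0.56, with changes of 0.62 and 0.059.

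Among the other NF-κB genes, differences were found for NFKBIZ (0.46), TNIP2 (0.25), GADD45B (0.50), PTGS2 (0.72), MMP7 (0.58), TLR3 (0.58) and IL32 (-0.89), which was not tested in the CTNNB1 arm alone. IL32 averaged under 1 TPM in every group but shAPC and entered this test only through shAPC. Its difference and its place in the count of lower calls are therefore not support for a change. Under median-ratio scaling 0 of the inhibitors and 0 of the receptors passed this test, so NFKBIZ, TNIP2 and TLR3 did not. Of the other NF-κB targets, 5 were called higher and 1 lower in this test, and 2 and 1 under median-ratio scaling. MMP7 changed by 0.16 in the CTNNB1 arm and -0.42 in the shAPC arm.

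Among interferon genes, differences were found for IFIT2 (1.48), IFIT1 (1.16), IFIT3 (1.28), IFI6 (1.07), IFI44 (0.93) and OAS1 (0.45). IFIT2 changed by 1.19 in the CTNNB1 arm and by -0.29 in the shAPC arm. The interferon genes listed here, like GADD45B, PTGS2 and TLR3, had their lowest mean in GFP, the control of the CTNNB1 arm. These interferon genes also had their highest mean in shNT1, the control of the shAPC arm. OAS1 averaged 11.75 TPM in GFP and 11.83 in CTNNB1, against 18.63 in shNT1 and 13.57 in shAPC.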

How the results depend on the processing

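The count of members called was 6 in each arm. It stayed within 1.5 times of that under a pseudocount of 0.1, no filter, median-ratio scaling, quantile normalization, no variance trend, the replicate block, one fit of all 4 groups and the authors' deposited tables. With no filter the CTNNB1 arm gained TNFAIP3 and lost CXCL3. With a mean TPM of at least 5, only 3 members entered, and 2 were called in the CTNNB1 arm and 1 in the shAPC arm. Leaving out 1 library at a time gave 4 to 6 members called in the CTNNB1 arm, 6 to 7 in the shAPC arm and 2 for the difference between arms.

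Over all genes, 2730 were called in the CTNNB1 arm (1898 higher, 832 lower) and 2615 in the shAPC arm (857 higher, 1758 lower). Under median-ratio scaling these were 1254 higher and 1461 lower, and 1264 higher and 1589 lower. Leaving out 1 library at a time gave 1499 to 3190 genes, 1484 to 2252 genes and, for the difference between arms (1885 genes), 995 to 2143 genes.

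The labels do not say whether same-numbered libraries belong together. The correlation of their deviations ran from 0.07 to 0.216 in the CTNNB1 arm, where 6 of 6 libraries correlated best with their own number, and from -0.206 to -0.006 in the shAPC arm, where 0 of 6 did. With the replicate block 2895, 1767 and 1145 genes were called in the CTNNB1 arm, the shAPC arm and the difference, and 6, 6 and 2 members.

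Members whose sign turned were not called in either setting. NFKBIA in the CTNNB1 arm was -0.017 under median-ratio scaling, -0.0072 under quantile normalization and -0.018 in the authors' deposited table. The differences between arms for CXCL3 and TNFAIP3 were 0.078 and 0.11 with a pseudocount of 0.1. Leaving out 1 library gave -0.0076 to 0.14 for CXCL16 and -0.016 to 0.12 for NFKBIA in the shAPC arm, and differences of -0.37 to 0.10 for CXCL3 and -0.068 to 0.071 for NFKBIA. The causes were not tested.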
